A study of Mus musculus with 12 samples.

Results

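The replication-dependent histone genes were taken as the mouse genes whose names in the authors' comparison tables start with Hist1h to Hist4h or with the newer symbols of the same families. This rule found 57 genes of the 38887 in the table of each library: 7 for the linker histone H1, 17 for H2A, 14 for H2B, 7 for H3 and 12 for H4. The family was chosen by the fold change of 1 member, Hist1h2ao, now H2ac23, which was known to be higher in IGF2BP2 KO macrophages in these data, so that the KO against WT values of H2ac23, and of H2ac24, with which it shares most of its sequence, are given as a description without a test. Another 6 genes with Hist names in the GENCODE annotation lay outside this rule, among them Hist3h2a with 64.0 to 176 counts in a library, and they were not analysed further. The RNA-Seq data comprised 12 libraries of bone marrow-derived macrophages (BMMs) from 3 WT and 3 KO mice, which were kept without IL-4 (M0) or received IL-4 at 20 ng/ml during 8 h (M2). The KO mice carried loxP sites around 2 exons of Igf2bp2, which encodes an mRNA-binding protein, and Cre recombinase expressed from the Lyz2 locus of myeloid cells. The WT littermates were not floxed and carried Cre in some animals only. All cells were differentiated for 6 days with 50 ng/ml M-CSF, and the labels and methods used here gave no further treatment.

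Replication-dependent histone genes supply the core histones and H1 that package new DNA in S phase. They lie in clusters, most have no introns, and their mRNAs normally end in a conserved stem-loop in place of a poly(A) tail. The stem-loop is bound by SLBP, which acts in the processing, translation and decay of these mRNAs. Variant histones such as H2A.Z and H3.3 come from separate genes with polyadenylated mRNAs and are made throughout the cell cycle. The libraries were made from poly(A)-selected RNA, so that the values below are those of histone RNA that was captured by this selection and are no measure of the total histone mRNA.

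The sequence around the stem-loop is shown because its presence, and the bases before it, set members of the family apart. In the lines below, which give 30 bases of the sense strand from GENCODE M21 transcripts (GRCm38), capitals mark the 16 bases of the stem-loop. H2ac18, which did not pass the filter on low counts, stands beside H2ac19, which has the same 30 bases, and H4c4 represents the most frequent form of the H4 genes.
H2ac23: aaaaaaaaaaaaGGCTCTTTTCAGAGCCat
H2ac24: aaaaaaaaaaaaGGCTCTTTTCAGAGCCat
H2ac19: agctcctaaaaaGGCTCTTTTCAGAGCCac
H2ac18: agctcctaaaaaGGCTCTTTTCAGAGCCac
H1f2: aacaatccaaaaGGCTCTTTTCAGAGCCac
H1f3: aaaatctcaaacGGCTCTTTTCAGAGCCac
H3c15: attccccacaaaGGCTCTTTTCAGAGCCac
H4c9: atgctacttaaaGGCCCTTTTTAGGGCCac
H4c4: ccaaaaaccaaaGGCCCTTTTCAGGGCCac

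A stem-loop of this pattern was found in 38 of the 57 genes, against 126 of all 141767 transcripts of the annotation. H1, H2A, H2B and H3 genes shared stems of one kind, and the stems of the H4 genes differed from them. H2ac23 and H2ac24 were the only members with 12 A directly before the stem-loop, where the longest run in the others was 7. A run of at least 12 A at any place was present in 3 members, the third being H2ac6, and in 4.07% of all transcripts of the annotation.

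Of the 57 genes, 10 passed the filter on low counts and 47 did not. Levels per length are given as TPM, which is relative to the total of a library. Over the 12 libraries H2ac24 had a mean of 151 TPM and H2ac23 of 105 TPM, followed by H1f2 with 20.0, H2bc4 with 17.0, H2ac19 with 13.4, H1f10 with 9.35, H4c9 with 3.98, H2bc21 with 2.31, H3c15 with 0.722 and H1f3 with 0.159 TPM. The order of the first pair differed between the genotypes, with H2ac24 above H2ac23 in WT (286 and 61.8 TPM in M0, 122 and 50.4 TPM in M2) and below it in KO (125 and 197 TPM, 70.2 and 109 TPM). By class these were 3 H1, 3 H2A, 2 H2B, 1 H3 and 1 H4 gene. H2ac23 and H2ac24 together made up 62.4 to 81.8% of the TPM of all 57 genes in a library. Summed over the 57 genes, the level was 450 ± 162 TPM in WT M0, 401 ± 14 TPM in KO M0, 249 ± 69.5 TPM in WT M2 and 248 ± 8.86 TPM in KO M2 (mean ± SD, n = 3 mice), so that WT mice varied more than KO mice in either treatment. Without H2ac23 and H2ac24 the other 55 genes summed to 102 ± 40.8, 79.1 ± 4.56, 76.2 ± 16.1 and 68.2 ± 1.96 TPM in the same order. Although the nucleosome holds equal numbers of H2A, H2B, H3 and H4, the summed levels of the classes in KO M0 were 336 ± 12.0 TPM for H2A, 22.6 ± 2.88 TPM for H2B, 2.91 ± 0.379 TPM for H3 and 7.38 ± 0.0929 TPM for H4, and 32.0 ± 0.823 TPM for H1. H1f10, also named H1fx, encodes an H1 that is made independently of replication, and it entered through its name.

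**Figure D1:**
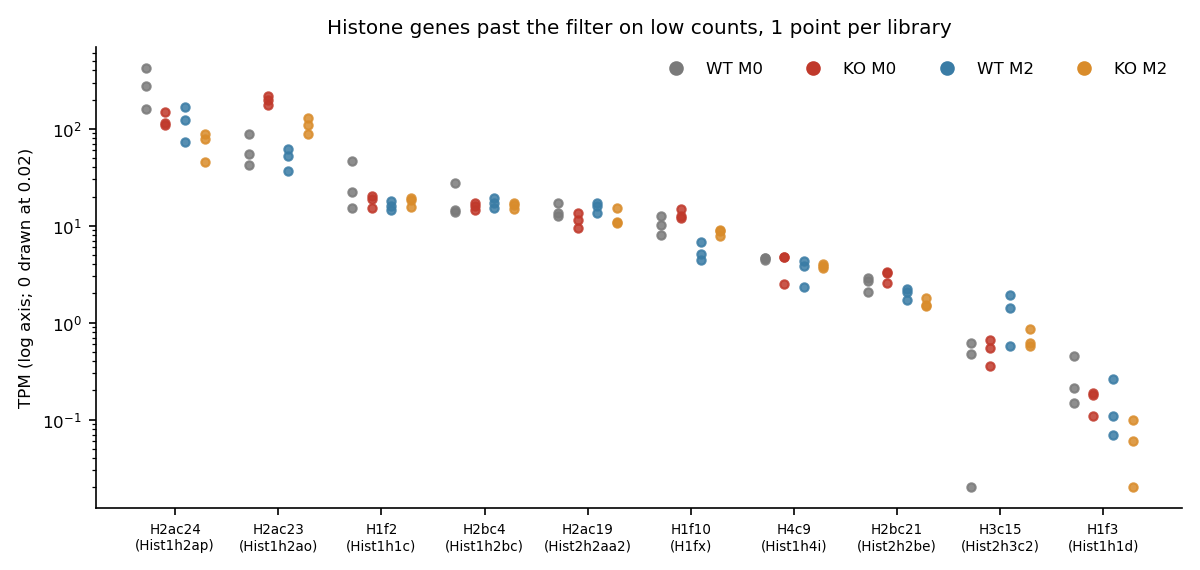
TPM (log axis) of the 10 histone genes that passed the filter on low counts, 1 point per library, with values of 0 drawn at 0.02. Groups are coloured. By their means over the libraries H2ac24 (151 TPM) and H2ac23 (105 TPM) were highest, in an order that was reversed in KO (125 and 197 TPM in M0), and H1f3 (0.159 TPM) was lowest.

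The 47 genes below the filter were close to the detection limit. Of their 564 values 240, or 42.6%, were 0, the highest value in a library was 19 counts, and 2 genes had no count in any library. H3c3 had the most counts of this set, with 84.5 over the 12 libraries, and H4c12 reached the highest level with 3.63 TPM in 1 library. The testis types H1f6, H2ac1 and H2bc1 were at or near 0. In this set 31 of 47 genes had the stem-loop, 11 had a poly(A) signal (AATAAA or ATTAAA in the last 50 bases of the transcript), and 13 had transcripts that ran on for more than 100 bases after the stem-loop. Of the 10 genes past the filter, 7 had the stem-loop, 4 had a poly(A) signal (H1f2, H1f10, H4c9 and H2bc21), 4 ran on for more than 100 bases (840 in H1f2, 4884 in H1f3, 377 in H3c15 and 330 in H4c9), and 2 had the run of A. These features are those of M21 transcripts, and the counts of some genes rest on other models, with lengths of 3821 bases for H1f3 and 537 for H4c9 in the deposited values against 7425 and 727 in M21. Every one of these 10 genes except H2ac19 and H2bc4 had at least 1 of the last 3 features, as did 17 of the 47 below the filter. H2ac23 and H2ac24 counted here through the run of A alone. The length of 12 A is the one found in this pair, and the longest run at the stem-loop of the others was 7. This comparison thus rests in part on the choice of that length.

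A single pair of libraries stood apart in this family. The M0 and M2 libraries of WT mouse 3 held 162 and 168 TPM of 7 RNAs that are made without a poly(A) tail (Rmrp, Rpph1, Rn7sk, Terc, Rny1, Rny3 and Vaultrc5), whereas the other 10 libraries held 21.1 to 54.6 TPM. In the same libraries the 47 low histone genes summed to 10.3 and 7.67 CPM, against 1.73 to 3.78 CPM in the others, and the H4 genes to 4.63 and 3.53 CPM. CPM are counts relative to the TMM-scaled total of a library and serve for comparisons of 1 gene between libraries. The part that these RNAs have in the results was not tested, and values without WT mouse 3 are given beside a number of the results.

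**Figure D2:**
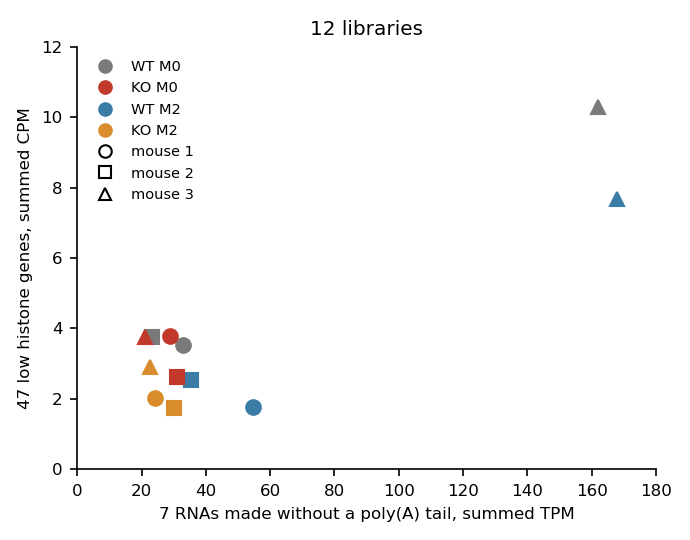
Summed TPM of 7 RNAs made without a poly(A) tail (horizontal axis) and summed CPM of the 47 histone genes below the filter (vertical axis), 1 point per library, coloured by group and with 1 symbol for each mouse number. Both libraries of WT mouse 3 lay at 162 and 168 TPM and above 7 CPM, apart from the other 10.

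Libraries held 20011792 to 39632770 counts. Igf2bp2 itself was at 76.5 to 118 CPM in WT M0 and at 84.9 to 95.9 CPM in KO M0, and at 178 to 233 and 129 to 146 CPM in WT and KO M2 macrophages. KO against WT it had a log2 fold change in M0 of -0.11 (SE 0.13, edgeR adjusted p = 0.656), and in M2 of -0.65 (SE 0.13, edgeR adjusted p = 0.0285). The values are per gene, and the floxed exons were not measured separately here. In their own measurements the authors reported mRNA and protein of IGF2BP2 as close to undetectable in KO BMMs. The M2 call was lost in 4 of 6 fits that left out 1 library. Macrophage markers summed to 3920 to 4747 TPM, and lymphocyte, erythroid, and dendritic and mast cell markers to at most 0.12, 0.37 and 1.05 TPM. Stromal markers summed to 10.9 to 22.8 TPM in WT and 3.18 to 12.6 TPM in KO libraries, and neutrophil markers to 13.1 to 56.0 and 12.8 to 18.4 TPM. S100a9 and Ngp of the neutrophil list were lower in KO M0, with log2 fold changes of -1.38 (edgeR adjusted p = 0.0124) and -1.82 (edgeR adjusted p = 0.018). With IL-4 these 2 of the 3 tested neutrophil genes were lower in WT, S100a9 by -0.75 (edgeR adjusted p = 0.0485) and Ngp by -1.28 (edgeR adjusted p = 0.023), and 0 of the 3 were called in KO or in the difference between the responses. Of all genes 9.78% were called between the genotypes in M0 and 3.24% in the difference. With IL-4 50.0% were called in WT (25.1% lower) and 52.8% in KO. Zbtb46, the only tested gene of the dendritic and mast cell list, was higher with IL-4 in WT (2.54, edgeR adjusted p = 1.32e-05) and in KO (2.45, edgeR adjusted p = 9.23e-06). The part of these other cells in the histone values was not tested.

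H2ac23 (Hist1h2ao, ENSMUSG00000094248, chr13:21810465-21810944, plus strand of GRCm38) and H2ac24 (Hist1h2ap, ENSMUSG00000094777, chr13:21833026-21833507, minus strand) encode replication-dependent H2A and lie in the large histone cluster, with H4c17 and H4c18 between them. Their annotated transcripts of 480 and 482 bases share an unbroken run of 452 identical bases. H2ac23 has 28 further bases at its 3′ end, and H2ac24 has 30 further bases at its 5′ end. Of all windows of 75 bases, the length of a read, 28 of 406 in H2ac23 (6.90%) and 30 of 408 in H2ac24 (7.35%) occurred in no other gene of GENCODE M21. The deposited values give H2ac24 a length of 519 bases, so that they rest on another model of its transcript, whose windows were not analysed here. Reads from the rest are divided between genes by estimation, and the mean posterior standard deviation of the count, which the authors' tables give, was 84.1 reads for either gene in a library.

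In M0 macrophages H2ac23 was measured at 11.7, 19.1 and 9.7 CPM in the WT and at 43.6, 39.2 and 48.7 CPM in the KO libraries. H2ac24 was measured at 37.3, 65.1 and 107 CPM in WT and at 26.5, 36.6 and 28.7 CPM in KO. All KO libraries were higher in H2ac23 and lower in H2ac24 than all WT libraries. For H2ac24 the nearest libraries were KO library 2 at 36.6 CPM and WT library 1 at 37.3 CPM. Their estimated counts of 1381 and 1153 had posterior standard deviations of 125 and 71.5 reads. The sum of both genes was 49.0, 84.2 and 117 CPM in WT against 70.1, 75.8 and 77.4 CPM in KO, so that the groups overlapped. H2ac23 accounted for 18.3 ± 8.67% of the pair in WT and 59.0 ± 6.29% in KO (mean ± SD, n = 3 mice).

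In M2 macrophages H2ac23 was at 8.5, 14.4 and 12.0 CPM in WT and at 21.6, 29.8 and 25.7 CPM in KO. H2ac24 was at 18.4, 31.4 and 42.8 CPM in WT and at 23.5, 11.4 and 19.9 CPM in KO. Again H2ac23 did not overlap between the genotypes, whereas H2ac24 did. The sum was 26.9, 45.8 and 54.8 CPM in WT against 45.2, 41.2 and 45.6 CPM in KO, of which H2ac23 made up 28.3 ± 5.54% and 58.8 ± 12.5%.

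**Figure D3:**
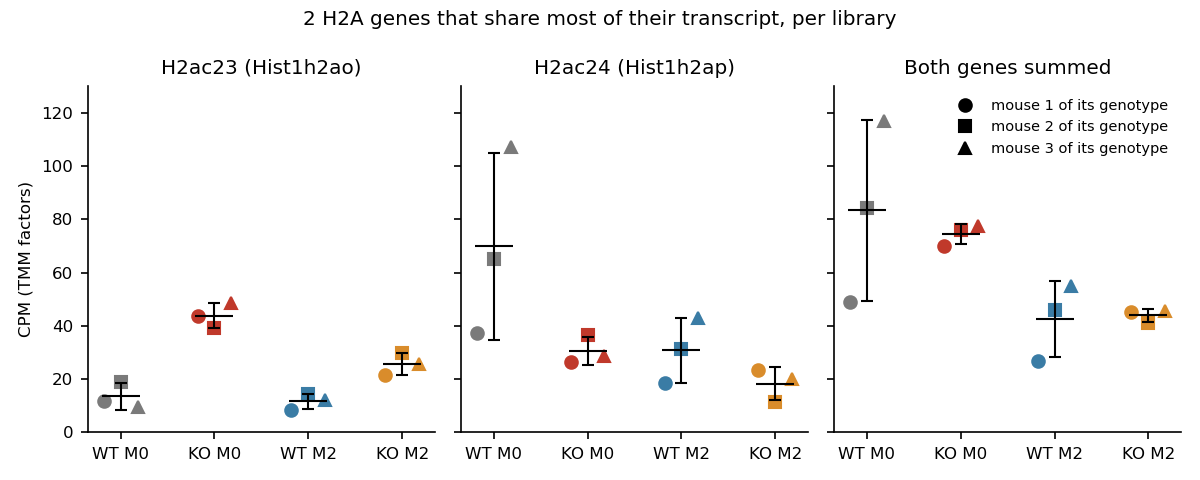
CPM (TMM-scaled) of H2ac23, of H2ac24 and of their sum, by group. Points are libraries, with 1 symbol for each mouse of a genotype, and lines with bars are means ± SD (n = 3 mice). H2ac23 was at 9.7 to 19.1 CPM in WT M0 and at 39.2 to 48.7 CPM in KO M0, while the sums of the genotypes overlapped in M0 and in M2.

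As a description, the log2 fold change of KO against WT was 1.69 (SE 0.22) for H2ac23 and -1.18 (SE 0.36) for H2ac24 in M0, and 1.16 (SE 0.23) and -0.76 (SE 0.39) in M2. Without WT mouse 3 the value of H2ac24 in M0 was -0.74 and that of H2ac23 was 1.51. Genes were also merged into sets, in which each gene was joined to any other that held at least 50% of its windows, so that some members of a set share fewer. When the counts of the set of 11 H2A genes with H2ac23 and H2ac24 were added up before the fit, the log2 fold change was -0.16 (SE 0.26) in M0 and 0.05 (SE 0.28) in M2. Without WT mouse 3 it was 0.16 and 0.28. In the estimated counts H2ac23 was thus higher and H2ac24 lower in KO, while the summed genes lay within 1 SE of 0. Whether reads were assigned to the right gene of the pair was not tested.

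The promoters of both genes also held identical sequence, which is shown because the pair differed in its estimated counts. Their windows of 300 bases around the start site in RefSeq (GRCm38.p6) shared 200 identical bases, of which 150 are given, at chr13:21810217-21810366 on the plus strand for H2ac23 and at chr13:21833576-21833725 on the minus strand for H2ac24. Capitals mark CCAAT, a motif bound by NF-Y, on either strand.
H2ac23 and H2ac24: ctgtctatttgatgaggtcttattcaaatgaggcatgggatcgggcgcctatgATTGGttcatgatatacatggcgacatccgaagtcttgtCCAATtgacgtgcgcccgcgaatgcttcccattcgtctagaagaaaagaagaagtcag
The letters CCAAT were present on either strand in 43 of 52 members with a promoter in the table (82.7%) and in 37.4% of 32851 promoters in all. TATAAA was present in 31 of the 52 (59.6%) and in 13.6% of all promoters. The search of each motif covered both strands, and the letters of CCAAT and TATAAA cannot overlap by more than 1 base. A match is a description of the letters and not of a bound site.

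The effect of the loss of IGF2BP2 on the 8 other genes past the filter was tested next, with edgeR's quasi-likelihood test adjusted over all 12846 genes tested and a call at an adjusted p under 0.05. A smaller number of cells of one type and less RNA per cell cannot be told apart in such bulk samples. In M0, 0 of the 8 genes were called by edgeR, against 9.78% of all genes. An unadjusted p under 0.05 was found for 0 of the 8, against 3252 of 12846 genes. DESeq2 called 0 of the 8 in M0, against 1560 of 12846 genes. In M2, 0 were called by edgeR, against 2.68% of all genes. There 1 of the 8 had an unadjusted p under 0.05, against 2611 of 12846 genes. DESeq2 called 1 of the 8 in M2, against 717 of 12846 genes. Counting H2ac23, which the choice of the genes fixed, 1 of 10 was called in either treatment. In M2 H2ac23 stayed past the threshold in 1 of 6 fits that left out 1 library. The median log2 fold change of the 10 genes was -0.18 in M0 and -0.18 in M2, and that of all genes was 0.00 in both. Without WT mouse 3 the M0 values of H2bc4, H1f10, H2bc21 and H3c15 were 0.21, 0.57, 0.39 and 0.79. Those of H1f2, H1f3, H4c9 and H2ac19 were -0.001, -0.13, -0.11 and -0.32. In M2 those of H2bc4, H1f2, H1f10 and H4c9 were 0.02, 0.25, 0.87 and 0.31. Those of H1f3, H2ac19, H2bc21 and H3c15 were -0.50, -0.42, -0.39 and -0.49. After genes that share windows had been merged, 9.78% of the tested features were called in M0 and 2.66% in M2, and no merged set of histone genes outside the pair was among them.

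The gene with the unadjusted p under 0.05 was H1f10 (H1fx, ENSMUSG00000044927, chr6:87980421-87981637, minus strand). In M2 it was at 2.50, 2.89 and 3.88 CPM in WT and at 5.46, 4.94 and 4.44 CPM in KO. The groups did not overlap, and the log2 fold change was 0.68 (SE 0.21, edgeR adjusted p = 0.0995, DESeq2 adjusted p = 0.0411). In M0 its values of 4.20, 5.42 and 7.17 CPM in WT against 8.01, 6.63 and 6.89 CPM in KO overlapped, with a log2 change of 0.36 (SE 0.19, edgeR adjusted p = 0.246). Without WT mouse 3 it was called in both, at 0.57 (edgeR adjusted p = 0.0264) in M0 and 0.87 (edgeR adjusted p = 0.0132) in M2. Over the alternatives that did not leave out single libraries the adjusted p of H1f10 ranged from 0.0264 to 0.27 in M0 and from 0.0132 to 0.106 in M2. In the fits that left out 1 library it ranged from 0.0534 to 0.535 in M0 and from 0.0625 to 0.275 in M2. H1f10 was called in 0 of 6 of these fits in either treatment. H1f10 is overlapped by an annotated gene on either strand, and all of its windows of 75 bases were its own.

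H1f2 (Hist1h1c, ENSMUSG00000036181, chr13:23738808-23740367, plus strand), a replication-dependent H1, was at 12.3, 17.9 and 39.6 CPM in WT M0 and at 12.5, 16.7 and 15.7 CPM in KO M0. The WT library of mouse 3 was high and the others overlapped. Its log2 fold change was -0.62 (SE 0.31, edgeR adjusted p = 0.233) and moved to 0.00 (edgeR adjusted p = 0.999) without WT mouse 3. When WT M0 library 1 alone was left out it was called, at -0.93 (edgeR adjusted p = 0.0383).

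Of the core histone genes outside the pair none was called between the genotypes. H2bc4 (Hist1h2bc, ENSMUSG00000018102, chr13:23684199-23692908, plus strand), an H2B gene, was at 5.11, 4.93 and 10.3 CPM in WT M0 and 5.73, 5.36 and 6.33 CPM in KO M0, where the third WT library was high. Without WT mouse 3 its log2 change turned from -0.21 to 0.21. H2bc21 (Hist2h2be, ENSMUSG00000068854, chr3:96221119-96223738, plus strand), an H2B gene outside the large cluster, was at 2.81, 3.75 and 4.28 CPM in WT M0 and 4.63, 3.66 and 4.62 CPM in KO M0, with a log2 change of 0.25 (SE 0.17, edgeR adjusted p = 0.39). H4c9 (Hist1h4i, ENSMUSG00000060639, chr13:22040636-22041362, minus strand), the only H4 gene past the filter, was at 1.13, 1.12 and 1.21 CPM in WT M0 and at 0.624, 1.22 and 1.22 CPM in KO M0. For H4c9 the groups overlapped, and 1 KO library was low. In M2 macrophages H2bc4 was at 6.45, 5.82 and 7.41 CPM in WT and at 6.97, 5.59 and 6.24 CPM in KO, and H4c9 at 0.636, 1.03 and 1.12 CPM in WT and at 1.05, 1.06 and 0.969 CPM in KO. Both genes overlapped between the genotypes there too, with log2 fold changes of -0.07 (SE 0.24, edgeR adjusted p = 0.899) and 0.15 (SE 0.29, edgeR adjusted p = 0.808). H3c15 and H1f3 were under 1 CPM in nearly every library and were not called in either treatment. The log2 change of H1f3 was -0.74 in M0 and -1.19 in M2, and without WT mouse 3 it was -0.13 and -0.50.

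H2ac19 (Hist2h2aa2, ENSMUSG00000063954, chr3:96239749-96240276, minus strand) was at 4.56, 3.35 and 3.86 CPM in WT M0 and 3.67, 2.65 and 3.24 CPM in KO M0, and at 4.91, 4.59 and 3.88 CPM in WT M2 and 4.63, 3.03 and 3.12 CPM in KO M2. Neither difference was called, with -0.31 (SE 0.19, edgeR adjusted p = 0.348) for M0 and -0.33 (SE 0.19, edgeR adjusted p = 0.369) for M2. All 454 windows of H2ac19 also occurred in H2ac18 and in Gm20634 (ENSMUSG00000070392), whereas H2ac18 had 57 windows of its own, so that the counts of H2ac19 rest on the division of shared reads. The sum of H2ac18 and H2ac19, which leaves out Gm20634, was not called either, with -0.31 (edgeR adjusted p = 0.364) in M0 and -0.37 (edgeR adjusted p = 0.323) in M2.

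The response to IL-4 was then compared within each genotype. These comparisons share the M0 libraries in which H2ac23 had been chosen, so that they were tested for the 8 genes outside the pair, and the values of H2ac23 and H2ac24 are a description here as well. In WT macrophages 2 of the 8 genes were called, H1f10 lower and H3c15 higher, against 50.0% of all genes called and 25.1% called lower. In KO macrophages 2 of the 8 were called, H2bc21 and H1f10, both lower, against 52.8% of all genes called and 26.0% called lower. Counting the pair, 3 of 10 were past the threshold in either genotype. The median log2 fold change of the 8 genes was -0.30 in WT and 0.02 in KO, that of the 10 genes was -0.30 and -0.27, and that of all genes was -0.01 and 0.01. With the mouse as a block, which uses that both libraries came from the same animal, 54.6% of all genes were called in WT and 58.2% in KO, and 3 of the 8 histone genes in either genotype (4 of 10 in WT and 5 of 10 in KO with the pair).

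H1f10 was called in both genotypes. In WT it went from 4.20, 5.42 and 7.17 CPM in M0 to 2.50, 2.89 and 3.88 CPM in M2, a log2 change of -0.85 (SE 0.21, edgeR adjusted p = 0.0039). In KO it went from 8.01, 6.63 and 6.89 CPM to 5.46, 4.94 and 4.44 CPM, a log2 change of -0.54 (SE 0.19, edgeR adjusted p = 0.027). The M0 and M2 groups did not overlap in either genotype, and the gene was lower with IL-4 in 6 of 6 mice. The call held in 6 of 6 fits that left out 1 library in WT (edgeR adjusted p from 0.00081 to 0.0222) and in 2 of 6 in KO, where it was lost without M0 library 1 or 3 and without M2 library 2 or 3 (edgeR adjusted p up to 0.0978). With the mouse as a block the adjusted p in KO was 0.000635.

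H2bc21 fell with IL-4 in KO macrophages, from 4.63, 3.66 and 4.62 CPM in M0 to 2.34, 2.23 and 2.66 CPM in M2. The groups did not overlap, the log2 fold change was -0.83 (SE 0.17, edgeR adjusted p = 0.00134), and the call held in 6 of 6 fits without 1 library. In WT the values were 2.81, 3.75 and 4.28 CPM in M0 and 3.27, 3.04 and 2.50 CPM in M2, which overlapped, with a log2 change of -0.29 (SE 0.18, edgeR adjusted p = 0.204). KO minus WT, the response differed by -0.54 (SE 0.25, edgeR adjusted p = 0.286), which was not called. All windows of H2bc21 were its own.

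As a description, the log2 change of H2ac23 with IL-4 was -0.23 (SE 0.24) in WT and -0.77 (SE 0.21) in KO. That of H2ac24 was -1.18 (SE 0.37) in WT, where its M0 and M2 values overlapped, and -0.76 (SE 0.38) in KO. Both genes were thus lower on average in M2 than in M0 macrophages of each genotype, and without WT M0 library 2 the value of H2ac23 in WT turned to 0.11.

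The sum of H2ac23 and H2ac24 was lower with IL-4 in 6 of 6 mice. It went from 49.0 to 26.9, from 84.2 to 45.8 and from 117 to 54.8 CPM in the WT mice, and from 70.1 to 45.2, from 75.8 to 41.2 and from 77.4 to 45.6 CPM in the KO mice. The groups overlapped in WT and not in KO. The log2 change of the 11 merged H2A genes was -0.97 (SE 0.27) in WT and -0.75 (SE 0.27) in KO, given as a description like those of the pair they contain.

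**Figure D4:**
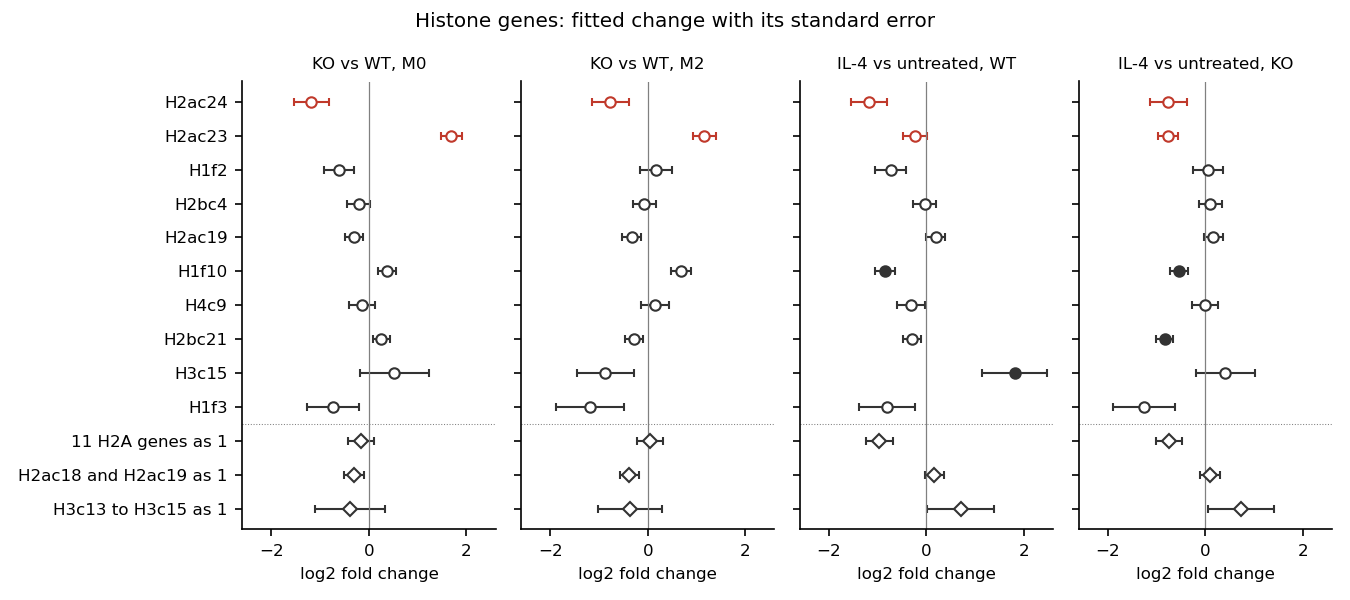
Log2 fold changes ± SE of the 10 histone genes past the filter and, as diamonds, of merged genes, for KO against WT and for IL-4 against untreated. Filled symbols were called, and H2ac23, H2ac24 and the merged H2A genes that include them are drawn open throughout, since their values are a description. H2ac23 and H2ac24 lay on opposite sides of 0 in KO against WT, whereas the 11 merged H2A genes lay near it.

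Of the other H2B genes, 6 that share windows and were each below the filter passed it when merged. Their sum had a log2 fold change with IL-4 of -1.14 (SE 0.43, edgeR adjusted p = 0.041) in WT and -1.11 (SE 0.42, edgeR adjusted p = 0.0412) in KO, with 50.0% and 52.8% of all features called in these merged fits. These calls held in 1 of 6 fits without 1 library in WT, where the fit without M2 library 3 kept it, and in 2 of 6 in KO, where those without M0 library 2 or M2 library 1 kept it. Without WT mouse 3 the WT value was -1.74 (edgeR adjusted p = 0.0137). DESeq2 gave adjusted p of 0.0536 and 0.0535. The sum of 6 H4 genes was not called in WT (-0.91, SE 0.69, edgeR adjusted p = 0.3), where 1 of 6 fits without 1 library called it and the value ranged from -2.11 to -0.03, or in KO (-1.29, SE 0.80, edgeR adjusted p = 0.2). In KO it was called with the mouse as a block (edgeR adjusted p = 0.0393) and without WT mouse 3 (edgeR adjusted p = 0.0411). KO against WT, the H4 sum was at -1.10 in M0 and -1.48 in M2, neither of them called, and at -0.22 and -0.29 without WT mouse 3.

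H3c15 (Hist2h3c2, ENSMUSG00000081058, chr3:96238108-96239127, minus strand), the only H3 gene past the filter, was called higher with IL-4 in WT from few reads. Its values were 0.323, 0 and 0.273 CPM in M0 and 0.318, 0.773 and 1.02 CPM in M2, so that the groups overlapped. The log2 fold change was 1.81 (SE 0.66, edgeR adjusted p = 0.037), and the call was lost without M0 library 2, M2 library 2 or M2 library 3, and at 1.69 (edgeR adjusted p = 0.123) without both libraries of WT mouse 3. Merged with H3c13 and H3c14, with which it shares windows, it was at 0.70 (SE 0.69, edgeR adjusted p = 0.429). In KO its values were 0.184, 0.292 and 0.360 CPM in M0 and 0.339, 0.310 and 0.485 CPM in M2, at 0.41 (SE 0.61, edgeR adjusted p = 0.603).

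H1f2 was at 13.6, 12.5 and 15.4 CPM in WT M2 and at 14, 16.6 and 15.9 CPM in KO M2. Its response to IL-4 in WT was -0.74 (SE 0.32, edgeR adjusted p = 0.0763), called with the mouse as a block at -0.62 (edgeR adjusted p = 0.0328) and without M0 library 1 at -1.05 (edgeR adjusted p = 0.00499), but at -0.21 (edgeR adjusted p = 0.38) without WT mouse 3. H1f3 (Hist1h1d, ENSMUSG00000052565, chr13:23553262-23560686, plus strand), the other replication-dependent H1 gene past the filter, was at 0.367, 0.239 and 0.387 CPM in KO M0 and at 0.0377, 0.129 and 0.215 CPM in KO M2. The groups did not overlap, and the value of -1.26 (SE 0.64, edgeR adjusted p = 0.116) was called only in the fits with the mouse as a block, at -1.27 (edgeR adjusted p = 0.0454), and without WT mouse 3 (edgeR adjusted p = 0.0449). H2bc4, H2ac19 and H4c9 were called in neither genotype, with log2 fold changes between -0.32 and 0.19. For H2bc4 in WT the value of -0.04 (SE 0.24, edgeR adjusted p = 0.913) turned to 0.39 (edgeR adjusted p = 0.0374) without M0 library 3.

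Whether IL-4 acted differently on the histone genes in KO than in WT was tested as a difference between the responses. By edgeR 0 of the 8 genes outside the pair were called, against 3.24% of all genes. An unadjusted p under 0.05 was found for 0 of the 8, against 2290 of 12846 genes. DESeq2 called 0 of the 8, against 825 of 12846 genes. H1f2 had the highest value, 0.79 (SE 0.45, edgeR adjusted p = 0.393), which was 0.25 without WT mouse 3, and H3c15 the lowest, -1.39 (SE 0.91, edgeR adjusted p = 0.462).

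The genes that make and process histone mRNA, and those of the cell cycle, were described from lists in the same fits. Of 22 genes of S phase, in which histones are needed, IL-4 lowered 21 in WT (median log2 fold change -0.64) and 22 in KO (median -0.87), where 50.0% of all genes were called in WT and 52.8% in KO. The thymidine kinase gene Tk1 fell from 124 ± 8.78 to 44.2 ± 4.31 CPM in WT (-1.49, SE 0.07, edgeR adjusted p = 2.2e-09) and from 109 ± 0.991 to 48.3 ± 0.433 CPM in KO (-1.17, SE 0.07, edgeR adjusted p = 1.61e-08; n = 3 mice each). All 12 genes of G2 and M phase were lower with IL-4 in both genotypes (median -1.23 and -1.12). The summed TPM of the S phase genes was 3044 to 3673 for untreated WT and 3165 to 3420 for untreated KO cells, and with IL-4 it was 2172 to 2296 and 1819 to 1937.

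Between the genotypes 3 S phase genes were higher in KO M0 and 6 were lower in KO M2, against 9.78% and 2.68% of all genes called. Uhrf1, which maintains DNA methylation after replication, was at 175 ± 12.4 CPM in WT M0 and 223 ± 10.8 CPM in KO M0 (0.35, SE 0.07, edgeR adjusted p = 0.0122), and at 128 ± 4.88 and 89.5 ± 9.49 CPM in M2 (-0.52, SE 0.08, edgeR adjusted p = 0.00813). Of the S phase genes, 6 responded differently to IL-4 in KO than in WT, all with a larger fall in KO and against 3.24% of all genes, among them Uhrf1 (-0.87, edgeR adjusted p = 0.00279) and Cdc6 (-0.78, edgeR adjusted p = 0.00874), which were called in 12 of 12 fits without 1 library. No G2 and M phase gene was called between the genotypes or in this difference.

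Of 15 genes for transcription and 3′ end formation of histone mRNA, IL-4 lowered 3 and raised 2 in WT and lowered 7 and raised 2 in KO, against 50.0% and 52.8% of all genes called. Slbp, which encodes the stem-loop binding protein, fell from 88.3 ± 2.53 to 57.8 ± 3.82 CPM in WT (-0.61, SE 0.09, edgeR adjusted p = 6.42e-05) and from 88.7 ± 3.45 to 48.0 ± 6.97 CPM in KO (-0.89, SE 0.09, edgeR adjusted p = 1.77e-06). Npat, a coactivator of histone gene transcription, fell in KO from 34.9 ± 1.19 to 23.4 ± 1.4 CPM (-0.57, edgeR adjusted p = 0.000121) and was not called in WT (-0.15, edgeR adjusted p = 0.18), where it was called without WT mouse 3 (-0.26, edgeR adjusted p = 0.0137). KO minus WT, its response differed by -0.42 (edgeR adjusted p = 0.0938), which was called with the mouse as a block (edgeR adjusted p = 0.0443) and by DESeq2 (adjusted p = 0.0402). Cpsf3, the nuclease that cuts the 3′ end, rose in both genotypes (0.48 and 0.47, edgeR adjusted p = 5.28e-07 and 4.92e-07). Between the genotypes 0 of the 15 genes were called in M0 and 1 in M2, Casp8ap2 (-0.36, edgeR adjusted p = 0.0275), which was called in 1 of 6 fits without 1 library, against 9.78% and 2.68% of all genes. In the difference between the responses 1 of the 15 was called, with a lower value in KO, against 3.24% of all genes.

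Of 9 genes of histone mRNA decay, 1 was called lower in KO M0 (Exosc10, -0.18, edgeR adjusted p = 0.0294) and 1 in KO M2 (Eri1, an exonuclease acting on the stem-loop, -0.24, edgeR adjusted p = 0.0374). Either call held in 2 of 6 fits without 1 library, and 9.78% and 2.68% of all genes were called in these comparisons. IL-4 raised 1 of the 9 in WT, and raised 1 and lowered 3 in KO, against 50.0% and 52.8% of all genes called.

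Histone chaperones, which carry histones to DNA, were called lower with IL-4 for 10 of 15 genes in either genotype, and higher for 2 in WT and 1 in KO, against 50.0% and 52.8% of all genes called. Nasp, a chaperone of H3 and linker histones, was at 86.3 ± 3.26 CPM in WT M0 and 99.5 ± 2.26 CPM in KO M0 (0.21, SE 0.06, edgeR adjusted p = 0.0377, called in 0 of 6 fits without 1 library). In M2 it was at 75.4 ± 3.65 and 58.6 ± 4.06 CPM (-0.36, SE 0.06, edgeR adjusted p = 0.0124, called in 3 of 6), and its response to IL-4 differed by -0.57 (edgeR adjusted p = 0.0041, called in 12 of 12). In the list, 1 of 15 genes was called in M0, 3 in M2 and 3 in the response difference, against 9.78%, 2.68% and 3.24% of all genes. Chaf1a and Chaf1b of chromatin assembly factor 1 differed likewise in the response, by -0.62 (edgeR adjusted p = 0.0128) and -0.52 (edgeR adjusted p = 0.0235), the latter called in 6 of 12 fits without 1 library.

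Of 11 replication-independent histone genes, H1f10 among them, IL-4 lowered 8 and raised 1 in WT (median -0.83) and lowered 5 and raised 1 in KO (median -0.42), against the same shares of all genes. H2afz, which encodes H2A.Z, fell from 418 ± 77.0 to 236 ± 45.8 CPM in WT (-0.83, SE 0.13, edgeR adjusted p = 0.000212) and from 368 ± 1.65 to 254 ± 10.3 CPM in KO (-0.53, SE 0.13, edgeR adjusted p = 0.00437). H1f0, the H1 of non-dividing cells, fell from 30.6 ± 8.65 to 17.1 ± 0.226 CPM in WT (-0.83, SE 0.15, edgeR adjusted p = 0.000529) and was lowered in KO as well (-0.43, SE 0.14, edgeR adjusted p = 0.0239, called in 2 of 6 fits without 1 library). Between the genotypes 0 of the 11 were called in M0, in M2 and in the difference between the responses, where 9.78%, 2.68% and 3.24% of all genes were called.

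**Figure D5:**
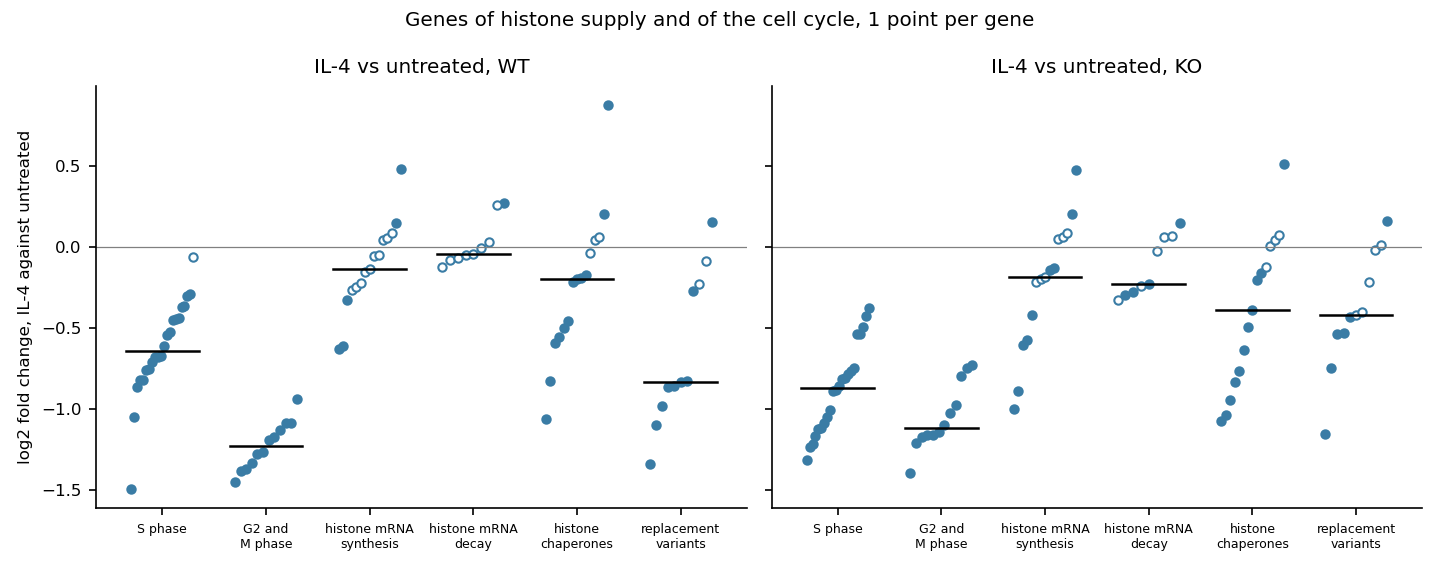
Log2 fold change of IL-4 against untreated for genes of the cell cycle and of histone supply, 1 point per gene, in WT and in KO. Filled points were called and lines are medians. The medians of S phase genes lay at -0.64 and -0.87, those of G2 and M phase genes at -1.23 and -1.12, and those of histone mRNA synthesis and decay nearer to 0.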

How the data were processed

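The authors sequenced poly(A)-selected, directional libraries as single-end reads of 75 bases, checked them with FastQC 0.11.2, ran the Grape-nf pipeline and aligned to GRCm38. The counting program, its annotation release and its use of strand were not given in the sources used here. Per library, the deposited values are expected counts (estimates that split a read with several matching genes over those genes) with their posterior standard deviation, and TPM as maximum-likelihood and posterior mean estimates. The authors' DESeq2 1.40.2 tables hold their own comparisons, and only gene names were taken from them. GENCODE M21 and RefSeq on GRCm38 supplied positions and sequences.

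The members, lists and tests were chosen with earlier results of these data known. Genes are named when they are histone genes past the filter or called genes of a list. Expected counts were rounded, filtered with filterByExpr by group (12846 genes kept) and fitted with edgeR 4.0.16 in R 4.3.3 (TMM, quasi-likelihood test, 12 libraries, Benjamini-Hochberg adjustment), with a biological coefficient of variation of 8.08%. The procedure was tested on simulated data. SE are the fold change over the root of its F statistic. Groups came from the labels, with 3 mice each, where an exact permutation test cannot go below 0.1. M0 and M2 libraries of 1 mouse varied together (correlations of deviations from the group means 0.103 to 0.364), whereas the number shared by WT and KO libraries did not pair them (-0.0684 to 0.0403). Libraries held 20011792 to 39632770 counts, and intervals over libraries cover the spread between mice.

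Alternatives were DESeq2 1.42.0, RLE factors, no filter or at least 1 CPM in 6 libraries, limma 3.58.1 on log2 TPM with pseudocounts of 1 and 0.1, a replicate block, only the 6 libraries of a comparison, and leaving out each library. Posterior mean counts, leaving out WT mouse 3, and merging genes into sets (each gene joined to any that held at least 50% of its windows of 75 bases, and sets chained) were added after the data were seen. Names in the tables cover protein-coding genes, so that small nuclear RNA genes of the 3′ end machinery were not analysed here.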

Additional observations from a re-analysis of the deposited data

How the results depend on the processing

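Of 866 tests of single histone genes under an alternative, 802 kept their direction and side of the threshold, 18 lost a call, 14 gained one and 32 reversed, of which 31 were called in neither fit. The cause was not tested. Over the fits without 1 library, the reversed log2 changes of KO against WT in M0 ranged from -0.39 to 0.214 for H2bc4, -0.297 to 0.088 for H4c9, -0.069 to 1.134 for H3c15, -0.437 to 0.16 for the 11 merged H2A genes and -0.871 to 0.58 for H3c13 to H3c15 merged. In M2 they ranged from -0.149 to 0.024 for H2bc4, -0.068 to 0.312 for H4c9, -0.199 to 0.275 for the H2A genes, -0.788 to 0.211 for the 6 merged H2B genes and -1.093 to 0.082 for the H3 genes. With IL-4 in WT they ranged from -0.218 to 0.386 for H2bc4 (0.386 being called, without WT M0 library 3) and -0.416 to 0.111 for H2ac23, and in KO from -0.062 to 0.142 for H1f2, -0.249 to 0.135 for H4c9, -0.044 to 0.279 for H2ac19, -0.111 to 0.212 for H2ac18 and H2ac19 merged and -0.003 to 1.211 for the H3 genes. For the response, KO minus WT, they ranged from -0.286 to 0.318 for H2bc4, -1.061 to 0.24 for H1f3, -0.231 to 0.092 for H2ac19, -0.03 to 0.728 for H2ac24, -0.111 to 0.486 for the H2A genes, -0.276 to 0.058 for H2ac18 and H2ac19, -0.319 to 0.68 for the H2B genes, -0.932 to 0.513 for the H3 genes and -1.262 to 0.814 for the 6 merged H4 genes. Without WT mouse 3 the reversed values were 0.212 for H2bc4, 0.159 for the H2A genes and 0.58 for the H3 genes in M0, 0.021 for H2bc4, 0.203 for the H2B genes and 0.089 for the H3 genes in M2, 0.291 for H2bc4 with IL-4 in WT, and -0.191 for H2bc4 and -0.491 for the H3 genes in the KO minus WT response. With the mouse as replicate block they were 0.008 for H2bc4 with IL-4 in WT, 0.0 for H4c9 with IL-4 in KO and -0.052 for the H3 genes in the response. With limma, H1f2 with IL-4 in KO was at -0.018 and -0.019, and H1f3 in the response at 0.014.

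The number of histone genes called (H2ac23 and H2ac24 included) changed by over 1.5 times as follows. For KO against WT in M0, 1 gene of 10 was called, 2 of 55 tested without a filter, 2 without WT mouse 3 and 0 after merging. Of all genes, these fits called 1256 of 12846, 1203 of 20576, 1733 of 13012 and 1256 of 12847. In M2, 1 was called, 2 with DESeq2, 0 with limma on either scale, 2 without WT mouse 3 and 0 after merging. The same fits called 344, 717, and 70 or 57 of all 12846 genes, then 1098 of 13012 and 342 of 12847. For IL-4 in WT, 3 of 10 were called and 6 of 55 without a filter, where 6428 of 12846 and 6035 of 20576 genes were called. For IL-4 in KO, 3 were called, 5 with the mouse as replicate block and 5 without WT mouse 3. The calls among all genes were here 6784 and 7472 of 12846, and 7245 of 13012. The difference between the responses gave 0 under each alternative. When each library was left out in turn, the counts ranged from 1 to 3 in M0, 0 to 1 in M2, 1 to 4 for IL-4 in WT, 2 to 3 for IL-4 in KO and 0 to 0 for the difference. Among all 12999 to 13150 genes tested, 461 to 1461 were then called in M0, 25 to 298 in M2 and 183 to 643 in the difference. With IL-4 it was 5606 to 6182 genes in WT and 6034 to 6367 in KO. A block on the number shared by WT and KO libraries, which did not pair them, left the counts at 1 in M0 and 1 in M2. It called 1322 and 413 of all 12846 genes. With posterior mean TPM 37 of 40 group levels stayed within 1 SD. Genes near the filter, such as H1f3 and H3c15, are limited by counts of a few reads, and H2ac23, H2ac24 and H2ac19 by shared sequence.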
